A study of Homo sapiens with 4 samples.

Results

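The genes here belong by name to enzyme families that place and remove methyl and acetyl groups on histone lysines, including histone deacetylases and sirtuins. Classes follow the names, and some members act on other proteins, such as SETD3 on actin and HDAC6 on tubulin. All these genes were measured in A549, a line long grown from a human lung adenocarcinoma. Cells were given 3 h of 100 nM dexamethasone, a synthetic glucocorticoid, or 3 h of 0.02% ethanol, its vehicle. The dexamethasone and vehicle groups are called dex and etoh, each with 2 libraries. Members were chosen by gene symbol alone, from the KDM, KMT, MLL, SETD, KAT, EHMT, HDAC and SIRT families plus EZH1, EZH2, DOT1L and NSD1, with at least 40 reads over the 4 libraries. The names matched 64 gene identifiers with 63 symbols, and 62 identifiers with 61 symbols held 40 reads or more, out of 14636 such genes in the series and 34608 in all.

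Lysine acetyltransferases open chromatin by acetylating histone tails, and deacetylases reverse that, many of them inside corepressor complexes that nuclear receptors can recruit. Lysine methyltransferases write marks of active promoters, enhancers and gene bodies or of repressed chromatin, and each family of demethylases erases some of them. The activated glucocorticoid receptor works with such enzymes at its binding sites, and class I deacetylases are known for their part in glucocorticoid repression of inflammatory genes in airway epithelium. The comparison of dex with etoh shows whether the RNA of the enzymes themselves differed after 3 h of hormone.

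Depth ranged from 9764159 to 11887526 aligned reads per library, and the matched genes held between 0.322% and 0.336% of them. Levels are reads of a gene, summed over its transcripts and scaled to the library's aligned reads (CPM), and means are ± SD over n = 2 libraries. FKBP5, TSC22D3, PER1 and DUSP1, known targets of the hormone, were all higher in dex, with log2 fold changes of 3.38, 4.45, 3.87 and 1.43. All 8 epithelial and A549 markers examined were detected, summing to between 24440 and 26716 CPM per library, most of it ALDH1A1. The keratins KRT8, KRT18 and KRT7 rose by 1.03, 0.68 and 0.66 on the log2 scale, and the other 5 were not called. Markers of immune, endothelial and stromal cells, 11 in number, summed to 20.8 and 24.2 CPM in the dex libraries and 12.6 and 18.3 CPM in the etoh libraries, most of it COL1A1, which rose by 0.56 on the log2 scale, and CD3E, VWF and COL1A2 had no reads in any library. The part of these markers in the results was not tested. Because bulk RNA was measured, fewer cells expressing a gene and less RNA per cell cannot be told apart.

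Most members of the group differed little between dex and etoh, with a 95% interval within 1.5-fold in both directions for 45 of the 59 that were not called. SIRT1 and KDM6A fell and HDAC7 rose, each by less than 1.5-fold in the fitted value, and these were the 3 of 62 members called, that is with an adjusted p under 0.05 (edgeR, quasi-likelihood; Benjamini-Hochberg over the 14777 genes tested). The 3 calls were 4.84% of the members, against 11.4% of all tested genes called in either direction. In each direction, 1 member was higher, against 6.98% of all tested genes, and 2 were lower, against 4.42%. The median log2 fold change was -0.02 over the members and -0.00264 over all tested genes, with 27 members above 0 and 35 below. Of all 14777 tested genes, 7331 were above 0 and 7446 below. The members ranged from -0.47 to 0.72 in log2 fold change, while the tested genes ranged from -3.85 to 6.63. The median size of the log2 fold change, sign ignored, was 0.12 over the members and 0.19 over all tested genes, with medians of 1317 and 796 reads. The levels in dex and etoh did not overlap for 19 of 62 members (30.6%), against 53.3% of all tested genes.

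**Figure D1:**
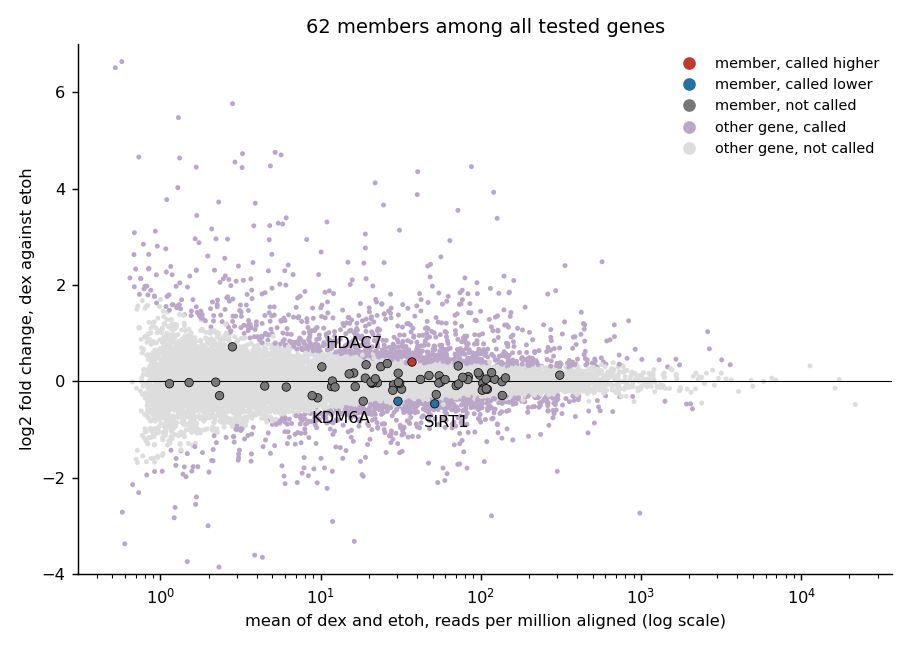
The log2 fold change of dex against etoh is plotted on the y axis against the mean level in CPM on a log x axis for all 14777 tested genes, with the 62 members as large points. The members lie between -0.47 and 0.72, inside a cloud that runs from -3.85 to 6.63, and only SIRT1, KDM6A and HDAC7 are coloured as called.

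SIRT1 encodes a nuclear deacetylase that depends on NAD and acts on histones and on transcription factors such as p53. It had 40.4 and 45.5 CPM in the dex libraries, against 65.5 and 54.8 CPM in the etoh libraries. Both dex libraries were below both etoh libraries, and the means were 43.0 ± 3.62 CPM in dex and 60.2 ± 7.56 CPM in etoh. The log2 fold change was -0.47 (SE 0.12, 95% interval -0.72 to -0.21, with adjusted p = 0.013 in edgeR), a fitted level of 72.4% of that in etoh. Without dex replicate 1 it was -0.39 (adjusted p = 0.090) and without etoh replicate 1 it was -0.32 (adjusted p = 0.27), so the call was lost in both cases. DESeq2 gave -0.47 with an adjusted p of 0.0503, and its most abundant transcript alone gave -0.48 with an adjusted p of 0.051 in edgeR.

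KDM6A, also known as UTX, removes the Polycomb methyl mark and belongs to the enhancer methyltransferase complexes of KMT2C and KMT2D. Its levels were 23.3 and 28.5 CPM in the dex libraries and 35.3 and 34.6 CPM in the etoh libraries, with no overlap. The means were 25.9 ± 3.65 CPM in dex and 34.95 ± 0.537 CPM in etoh, and the log2 fold change was -0.41 (SE 0.13, 95% interval -0.69 to -0.14, with adjusted p = 0.046 in edgeR). The call was lost without dex replicate 1, at -0.28 (adjusted p = 0.41), without etoh replicate 1, at -0.38 (adjusted p = 0.20), and without etoh replicate 2, at -0.44 (adjusted p = 0.074). It was also lost with DESeq2, at -0.42 (adjusted p = 0.21), and with the most abundant transcript of each gene, at -0.27 (adjusted p = 0.55 in edgeR). In GENCODE transcripts 2.34% of the 36-base stretches of KDM6A also occur in other genes, so a small part of its reads is uncertain. Its Y-linked paralog UTY was the gene credited with the largest number of these stretches.

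HDAC7 is a class IIa deacetylase, a family that shuttles between nucleus and cytoplasm and binds MEF2 factors. The dex libraries held 42.5 and 41.7 CPM and the etoh libraries 30.8 and 33.7 CPM, so dex was above etoh in every pair of libraries. HDAC7 averaged 42.1 ± 0.554 CPM in dex and 32.3 ± 2.05 CPM in etoh, a log2 fold change of 0.40 (SE 0.12, 95% interval 0.15 to 0.65, with adjusted p = 0.032 in edgeR). The value lay between 0.35 and 0.46 without each library in turn. The call was lost in each case, with adjusted p of 0.12 and 0.053 without dex replicates 1 and 2 and of 0.23 and 0.051 without etoh replicates 1 and 2. DESeq2 gave 0.40 (adjusted p = 0.17) and the most abundant transcript gave 0.54 (adjusted p = 0.079 in edgeR). An antisense gene, AC004466.1, overlaps 9.70% of the exon bases of HDAC7, and since the sources used here do not give the strand setting, reads of the pair cannot be told apart there.

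**Figure D2:**
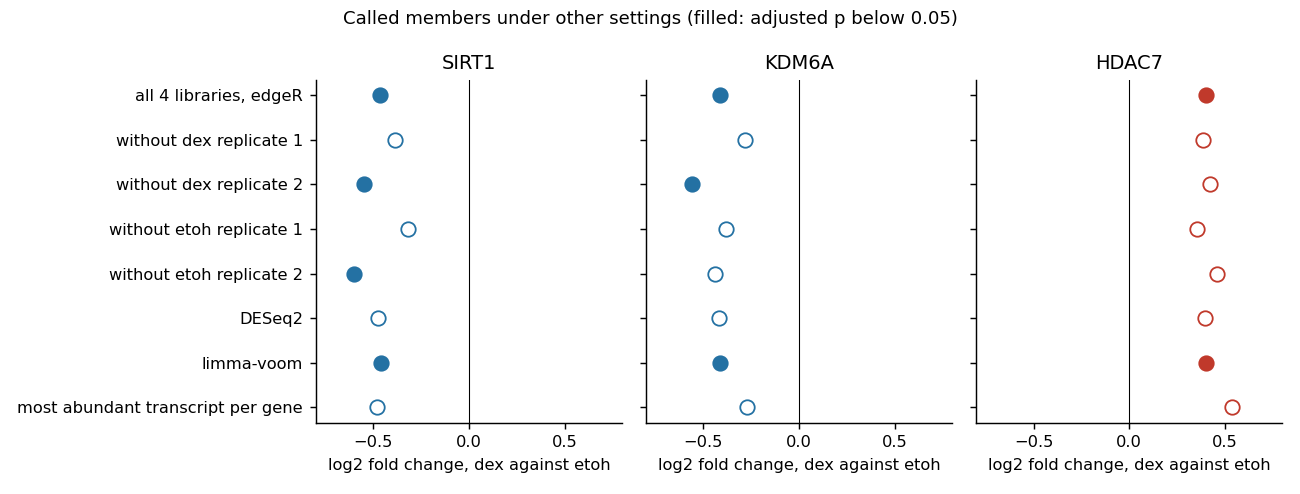
The x axis gives the log2 fold change of dex against etoh for SIRT1, KDM6A and HDAC7 in a panel each, with the setting down the page and filled points for an adjusted p below 0.05. Each point keeps its side of 0, between -0.60 and -0.32 for SIRT1, -0.56 and -0.27 for KDM6A and 0.35 and 0.54 for HDAC7, while many are open.

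The promoters of the called members are shown because they allow the sequence at each gene's start to be read beside its change. They come from RefSeq on GRCh38.p14 and run from 250 bases before to 50 bases after the start, 5′ to 3′ on the gene's strand, with each CACGTG in capitals.
SIRT1: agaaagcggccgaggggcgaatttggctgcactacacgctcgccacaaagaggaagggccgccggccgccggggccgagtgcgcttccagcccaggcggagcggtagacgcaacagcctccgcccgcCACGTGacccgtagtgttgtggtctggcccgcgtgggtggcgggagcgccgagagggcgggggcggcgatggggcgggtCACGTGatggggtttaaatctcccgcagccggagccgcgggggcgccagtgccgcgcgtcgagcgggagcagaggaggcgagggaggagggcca
KDM6A: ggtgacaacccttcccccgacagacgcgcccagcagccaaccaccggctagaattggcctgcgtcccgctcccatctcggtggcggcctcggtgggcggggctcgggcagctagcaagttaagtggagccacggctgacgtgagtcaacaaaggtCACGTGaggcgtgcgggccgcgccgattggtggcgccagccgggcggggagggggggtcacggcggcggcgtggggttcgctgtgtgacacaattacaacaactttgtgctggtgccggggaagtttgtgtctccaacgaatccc
HDAC7: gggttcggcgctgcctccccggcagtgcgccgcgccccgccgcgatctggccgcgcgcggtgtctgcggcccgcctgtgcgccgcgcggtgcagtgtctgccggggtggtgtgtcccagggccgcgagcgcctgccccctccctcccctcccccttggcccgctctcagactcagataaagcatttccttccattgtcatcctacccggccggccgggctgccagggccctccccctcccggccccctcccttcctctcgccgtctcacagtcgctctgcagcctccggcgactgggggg
The SIRT1 stretch lies at chr10:67884406-67884705 on the plus strand, the KDM6A stretch at chrX:44872938-44873237 on the plus strand and the HDAC7 stretch at chr12:47819854-47820153 on the minus strand. The palindromic glucocorticoid response element, AGAACA and its reverse complement TGTTCT with 3 bases between them, was in none of the 3 on either strand. This exact element was in only 1 of all 35116 promoters, so its absence from these 3 carries no information about them. AGAACA alone was also in none of the 3, on either strand. Of the 61 member symbols 54 had a promoter in the table, and 2 of these (3.70%), HDAC4 and SIRT3, held AGAACA on either strand, against 14.8% of 35116 promoters in all. The E-box CACGTG, its own reverse complement and chosen after the sequences were read, occurred at 2 places in the SIRT1 stretch, at 1 in that of KDM6A and at 0 in that of HDAC7. It was in 9 of the 54 member promoters (16.7%) and in 7.26% of all promoters. The 9 include SIRT1 and KDM6A, whose sequences were read before the choice, so the member share is not independent of it. The others were SETD6, KDM4C, KDM4B, NSD1, KMT2D, KAT5 and EHMT2, none of them called. Members' promoters had a median GC content of 66.8%, against 58.7% over all promoters. HDAC4 and SIRT3 held no CACGTG, so the motifs overlapped in no member promoter. In GENCODE 29 on GRCh38, SIRT1 spans chromosome 10 from 67884669 to 67918390, KDM6A chromosome X from 44873177 to 45112602 and HDAC7 chromosome 12 from 47782722 to 47833132, so the RefSeq start of HDAC7 lies inside its GENCODE span.

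The lysine demethylases were 17 members, of which 1, KDM6A, fell (5.88%) and 0 rose, against 4.42% of all tested genes called lower. Their median log2 fold change was -0.05, with 12 below 0 and 5 above, against 7446 below and 7331 above over all tested genes. KDM3A, an eraser of the repressive mark on lysine residues written by EHMT enzymes and a known hypoxia-responsive gene, had 124 and 119 CPM in the dex libraries, against 147 and 155 CPM in the etoh libraries. Its groups did not overlap, but its log2 fold change of -0.29 (SE 0.10) missed the threshold (adjusted p = 0.062 by edgeR). With library totals in place of TMM factors KDM3A passed, at -0.31. KDM6B, the paralog of KDM6A also known as JMJD3 and inducible by inflammatory signals in mouse macrophages, had 8.85 and 7.99 CPM in dex and 9.73 and 11.8 CPM in etoh. Its log2 fold change was -0.34 with a 95% interval of -0.74 to 0.06, so neither no change nor a fall like that of KDM6A lies outside it. It was -0.20 without etoh replicate 2 and -0.0395 with the most abundant transcript. KDM1A, also known as LSD1 and the demethylase with the highest level per transcript length, had 82.2 and 89.4 CPM in dex and 86.5 and 76.3 CPM in etoh, with overlapping groups and a log2 fold change of 0.09 (SE 0.11). KDM4B, an eraser of repressive methylation, had a log2 fold change of 0.30 (SE 0.19, with adjusted p = 0.36 in edgeR), or 0.18 without etoh replicate 2.

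Of 22 methyltransferase identifiers, 0 passed edgeR's test in either direction, against 11.4% of all tested genes, and DESeq2 called 0 members of any kind. An unadjusted p under 0.05 was found for 3 of the 22 (EHMT1 higher, SETD6 and EZH2 lower), against 23.5% of all tested genes. The nearest to the threshold was EHMT1, which with EHMT2 forms the main writer of the dimethyl repressive mark in euchromatin. EHMT1 had 79.6 and 80.2 CPM in the dex libraries, against 61.6 and 68.1 CPM in the etoh libraries, a log2 fold change of 0.32 (SE 0.11, with adjusted p = 0.060 in edgeR). Its partner EHMT2 was at 0.05 (SE 0.15). SETD6, which methylates the RelA subunit of NF-kB, had 14.4 and 17.0 CPM in dex and 21.4 and 21.03 CPM in etoh (-0.41 on the log2 scale, SE 0.15, with adjusted p = 0.086 in edgeR). Of the SETD6 exon bases 21.4% are overlapped by CNOT1 on the other strand. EZH2, the catalytic subunit of Polycomb repressive complex 2, had 46.5 and 48.3 CPM in dex and 57.3 and 58.8 CPM in etoh. The libraries of EZH2 did not overlap, and its log2 fold change was -0.27 (SE 0.11, with adjusted p = 0.12 in edgeR), while its paralog EZH1 was at 0.17 (SE 0.16). With the most abundant transcript EZH2 was at -0.12.

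The writers of active promoter and enhancer methylation lay close to 0. KMT2A was at -0.05 on the log2 scale, KMT2C at -0.09, KMT2D at -0.01, SETD1A at -0.04 and SETD1B at -0.02, with standard errors between 0.11 and 0.15, and each of these signs turned when some single libraries were left out. KMT2B is listed under 2 gene identifiers, and the most abundant transcript of each has 8469 bases. Their sequences were not compared here, and how shared reads were placed is not stated, so the division of reads between them is uncertain. One had 35.8 and 28.5 CPM in dex and 24.2 and 33.5 CPM in etoh, and the other had 48.1 and 50.4 CPM in dex and 40.9 and 50.7 CPM in etoh. With the identifiers summed by symbol, its log2 fold change was 0.15 (adjusted p = 0.50 by edgeR). NSD1 and SETD2, writers of gene-body methylation, were at -0.01 and 0.05, and DOT1L, the writer on the nucleosome core, was at -0.03. SETD7, a methyltransferase of histone and other proteins with the most reads of all members, had 332 and 314 CPM in dex and 294 and 304 CPM in etoh, a log2 fold change of 0.13 (SE 0.09, with adjusted p = 0.46 in edgeR).

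**Figure D3:**
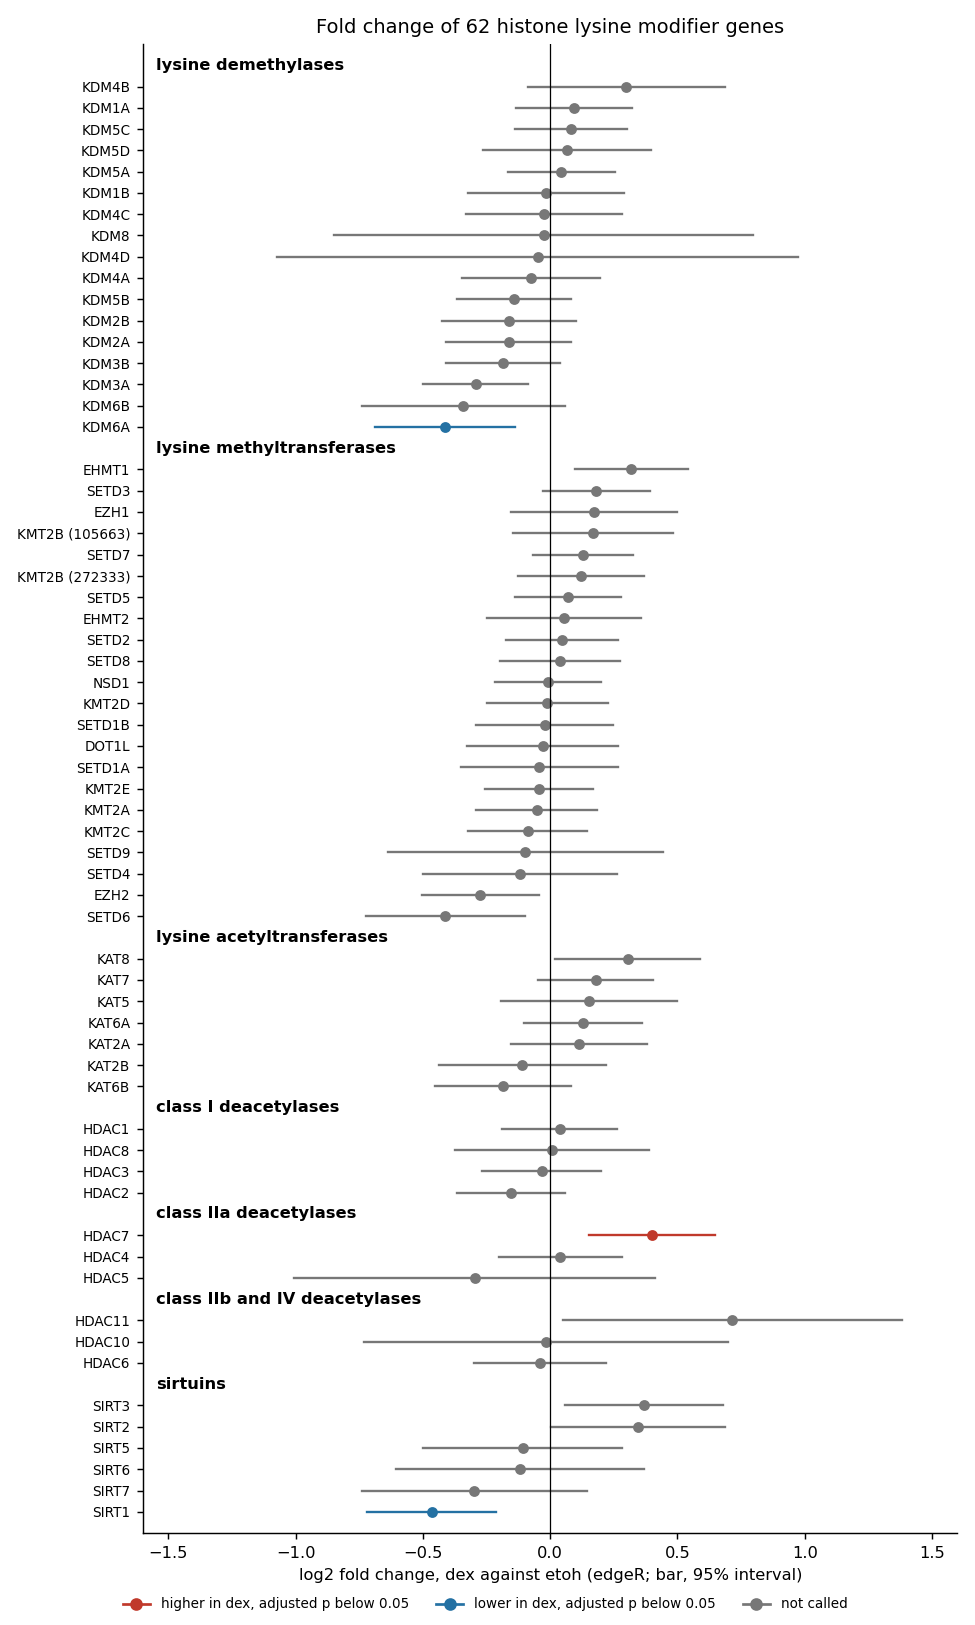
Log2 fold changes of dex against etoh are plotted on the x axis for the 62 members, grouped by role down the page, with bars for the 95% interval of edgeR's fit. HDAC7 is the single member coloured as higher and SIRT1 and KDM6A are coloured as lower, and the widest bars belong to members with few reads such as KDM4D and KDM8.

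None of the 7 lysine acetyltransferases passed edgeR's test (0 called), and 1, KAT8, had an unadjusted p under 0.05. Over all tested genes these shares were 11.4% and 23.5%. Of the 7 acetyltransferases 5 had a log2 fold change above 0, against 7331 of all 14777 tested genes. KAT8, also known as MOF, the acetyltransferase of the MSL and NSL complexes, had 24.7 and 27.5 CPM in the dex libraries, against 21.2 and 21.6 CPM in the etoh libraries. Its groups did not overlap, and its log2 fold change was 0.30 (SE 0.14, with adjusted p = 0.18 in edgeR). KAT7, or HBO1, which acts with ING and BRPF proteins, had the highest level of the acetyltransferases per transcript length, with 106 and 97.3 CPM in dex and 84.8 and 97.4 CPM in etoh (log2 fold change 0.18, SE 0.11). KAT2A, KAT2B, KAT5, KAT6A and KAT6B ranged from -0.19 to 0.15.

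Among the class I deacetylases, HDAC1 and HDAC2 are the catalytic subunits of the SIN3, NuRD and CoREST complexes and HDAC3 that of the NCOR complex. These and HDAC8, 4 members in all, had log2 fold changes between -0.16 and 0.04. Of the 4, 0 passed edgeR's test (0 also at an unadjusted p below 0.05), against 11.4% and 23.5% of all tested genes. HDAC1 had 88.2 and 79.0 CPM in dex and 78.7 and 86.2 CPM in etoh, with overlapping groups, and the 95% interval of its log2 fold change ran from -0.19 to 0.26. HDAC2, whose reduced activity has been linked to glucocorticoid resistance in airway disease, had 99.4 and 104 CPM in dex and 117 and 112 CPM in etoh. Its dex libraries were both below its etoh libraries, and its log2 fold change was -0.16 with a 95% interval of -0.37 to 0.06 (adjusted p = 0.39 by edgeR). With the most abundant transcript HDAC2 was at -0.00142. HDAC3 was at -0.03 with an interval of -0.27 to 0.20.

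Among the other class IIa enzymes HDAC4 had a log2 fold change of 0.04 (SE 0.12), and HDAC5, with 101 reads in all, was at -0.30 (SE 0.34), or 0.0433 without etoh replicate 2. HDAC9 did not reach 40 reads, with 5 and 9 reads in dex and 3 and 3 reads in etoh, and was not tested. HDAC6, a cytoplasmic deacetylase of tubulin, had 29.9 and 31.2 CPM in dex and 31.9 and 31.7 CPM in etoh, a log2 fold change of -0.04 with an interval of -0.30 to 0.22. HDAC11, the class IV enzyme, had the highest log2 fold change of all members, 0.72 (SE 0.32, with adjusted p = 0.17 in edgeR). It rested on 28 and 46 reads in dex and 18 and 29 reads in etoh, which is 2.85 and 4.13 CPM in dex against 1.84 and 2.44 CPM in etoh, without overlap. Without dex replicate 2 HDAC11 was at 0.42, below SIRT2 at 0.55 in the same fit.

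The sirtuins, deacetylases that use NAD, held 6 members, of which SIRT1 fell (16.7%) and 0 rose, against 4.42% of all tested genes called lower. SIRT3, the main mitochondrial deacetylase, had 28.4 and 30.2 CPM in the dex libraries, against 19.0 and 26.7 CPM in the etoh libraries. Its log2 fold change was 0.37 (SE 0.15, with adjusted p = 0.12 in edgeR), and without each etoh library it moved in opposite directions. It was 0.63 without etoh replicate 2, where it passed (adjusted p = 0.00998), and 0.17 without etoh replicate 1 (adjusted p = 0.76). SIRT2, a mostly cytoplasmic enzyme that acts on tubulin and histones, had 24.5 and 18.4 CPM in dex and 15.4 and 18.7 CPM in etoh. The SIRT2 groups overlapped, and its log2 fold change was 0.34 (SE 0.16, with adjusted p = 0.21 in edgeR), or 0.55 and past the threshold without dex replicate 2 (adjusted p = 0.030). Without dex replicate 1 it was 0.12 (adjusted p = 0.86), and without etoh replicate 1 it was 0.23. SIRT5, SIRT6 and SIRT7 ranged from -0.30 to -0.11. SIRT4 had 1 and 4 reads in dex and 3 and 0 reads in etoh and was not tested.

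**Figure D4:**
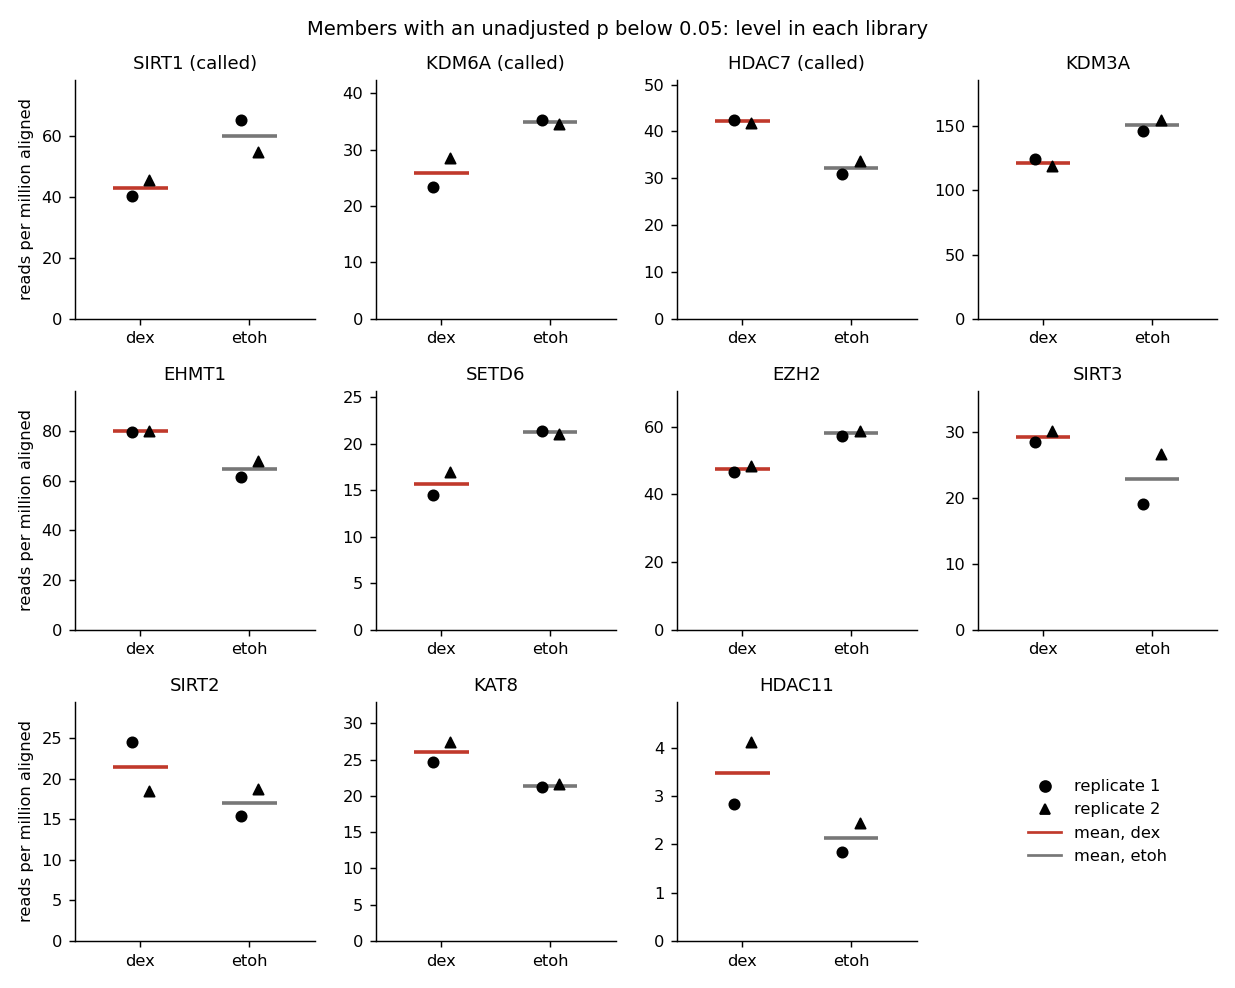
Each panel shows the level in CPM of a member with an unadjusted p below 0.05, from 0 upward, with dex on the left and etoh on the right, a symbol for each replicate and a line for the mean. The dex and etoh points of SIRT2 overlap and those of the other 10 members do not. SIRT1, for instance, is at 40.4 and 45.5 CPM in dex and 65.5 and 54.8 CPM in etoh. The panels were picked by p in these same libraries, so the lack of overlap is no separate support. Groups did not overlap for 30.6% of all members and 53.3% of all tested genes.

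In all, 11 members (17.7%) had an unadjusted p below 0.05, against 23.5% of all tested genes. For 14 members not called the 95% interval of the fold change reached past 1.5-fold. The standard error of the log2 fold change had a median of 0.13 and ran from 0.09 for SETD7, with 13247 reads, to 0.49 for KDM4D, with 50 reads. KDM4D was the member nearest above the minimum of 40 reads, with 0.610 and 1.62 CPM in dex and 0.819 and 1.51 CPM in etoh, and HDAC9, with 20 reads, was the nearest below it.

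The transcripts of the called members were also tested singly, in an edgeR fit over 49857 transcripts. Of 265 tested member transcripts 1 was called, SIRT1-003 at -0.57 (SE 0.17, with adjusted p = 0.044 in edgeR), against 5.64% of all tested transcripts. SIRT1-003 had 78 and 97 reads in dex, against 125 and 146 reads in etoh. Its dex reads were below its etoh reads in every library. The call was lost without dex replicate 1, at -0.52 (adjusted p = 0.26), dex replicate 2, at -0.64 (adjusted p = 0.063), etoh replicate 1, at -0.54 (adjusted p = 0.23), and etoh replicate 2, at -0.62 (adjusted p = 0.086). The 4 SIRT1 transcripts were all below 0 in log2 fold change, between -0.57 and -0.35. For KDM6A 6 of 7 tested transcripts were below 0, and KDM6A-201 was at 0.03 (SE 0.24). All 8 tested HDAC7 transcripts were above 0, from 0.01 for HDAC7-031 to 0.91 for HDAC7-030 (SE 0.30, with adjusted p = 0.079 in edgeR). Transcripts of a gene share sequence, and how shared reads were placed is not stated, so these values are not independent of each other.

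**Figure D5:**
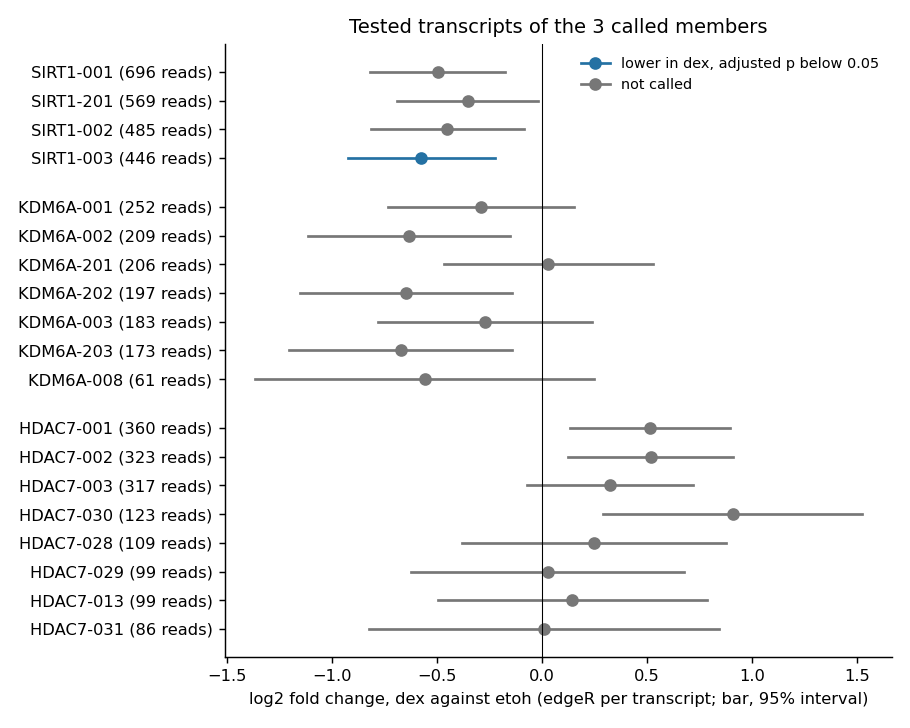
The x axis gives the log2 fold change of dex against etoh for each tested transcript of SIRT1, KDM6A and HDAC7, with bars for the 95% interval and the read total in the label. SIRT1-003 at -0.57 is coloured as lower, and the other transcripts, not called, lie below 0 for SIRT1, above 0 for HDAC7 and on both sides for KDM6A.

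Levels between genes were compared as TPM, reads per transcript length scaled to the same sum in each library. SETD3, a methyltransferase of actin, and SETD7 had the highest levels, 97.8 ± 1.77 and 95.8 ± 3.63 TPM in dex and 90.2 ± 3.11 and 89.6 ± 1.05 TPM in etoh, and these neighbours did not differ beyond their spread. By the mean over all 4 libraries, HDAC1 followed at 88.5 ± 3.99 TPM in dex and 86.0 ± 4.30 TPM in etoh, and then HDAC2 at 65.4 ± 4.19 TPM in dex and 81.1 ± 0.546 TPM in etoh. KDM1A, KAT7, SETD5 and HDAC3 came next, with means over all libraries between 64.1 and 72.3 TPM. In dex alone KDM1A, at 73.3 ± 5.80 TPM, KAT7, at 71.2 ± 2.33 TPM, and SETD5, at 66.6 ± 1.44 TPM, had higher means than HDAC2, with overlapping spreads. EZH2 had 34.7 ± 1.199 TPM in dex and 43.7 ± 0.213 TPM in etoh, against 14.3 ± 1.33 TPM in dex and 11.1 ± 0.211 TPM in etoh for EZH1. SIRT1 averaged 22.2 ± 2.26 TPM in dex and 31.6 ± 4.23 TPM in etoh, so it was below SIRT3, at 31.8 ± 0.274 TPM, in dex and above SIRT3, at 27.0 ± 6.26 TPM, in etoh, with overlapping spreads in etoh. KDM6A was at 14.2 ± 1.498 TPM in dex and 20.2 ± 0.869 TPM in etoh, and KDM6B at 3.31 ± 0.0314 TPM in dex and 4.57 ± 1.08 TPM in etoh. The median member was at 16.8 TPM and the median tested gene at 15.9 TPM.

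Of 120 partner genes in the same complexes and families, 115 were tested, 8 rose and 2 fell, which is 8.70% called against 11.4% of all tested genes. Their median log2 fold change was 0.01. Among 25 tested deacetylase corepressor subunits 4 rose (16%) and 0 fell, against 6.98% of all tested genes called higher and 4.42% called lower. No test of the set was run. RCOR1, the CoREST scaffold that joins KDM1A to HDAC1 and HDAC2, had 121 and 133 CPM in the dex libraries, against 83.9 and 78.7 CPM in the etoh libraries (0.66 on the log2 scale, SE 0.11, with adjusted p = 1.1e-04 in edgeR). The SIN3 subunit BRMS1 rose by 0.51 (SE 0.12), and was at 0.31 and not called without etoh replicate 1. The NCOR subunit GPS2 rose by 0.59 (SE 0.17), with 135 and 78.7 CPM in dex and 60.9 and 82.3 CPM in etoh. The GPS2 groups overlapped, and without dex replicate 1 its log2 fold change was 0.15 and not called, without etoh replicate 1 0.41 and not called, and without dex replicate 2 0.93.

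Of 25 acetyltransferases and subunits outside the KAT names 1 rose (4%) and 0 fell, against 6.98% of all tested genes called higher. It was MEAF6, shared by the KAT5, KAT6 and KAT7 complexes, with 42.9 and 41.7 CPM in the dex libraries, against 26.2 and 25.7 CPM in the etoh libraries (0.72 on the log2 scale, SE 0.12, with adjusted p = 2.2e-04 in edgeR). Of 13 COMPASS subunits, the partners of the KMT2 and SETD1 enzymes, 2 rose (15.4%, against the same 6.98%) and 0 fell. MEN1, or menin, had 53.7 and 46.1 CPM in dex and 24.9 and 38.9 CPM in etoh (log2 fold change 0.65, SE 0.15), and was at 0.39 and not called without etoh replicate 1 and at 1.01 without etoh replicate 2. CXXC1, which brings SETD1 enzymes to CpG islands, rose by 0.66 (SE 0.21), and lost its call without dex replicate 1, at 0.69, dex replicate 2, at 0.63, or etoh replicate 1, at 0.55.

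Of 9 Polycomb repressive complex 2 partners 1, JARID2, fell (11.1%) and 0 rose, against 4.42% of all tested genes called lower. JARID2, an accessory subunit of EZH2 complexes, had 25.8 and 20.6 CPM in the dex libraries, against 37.6 and 28.6 CPM in the etoh libraries (log2 fold change -0.49, SE 0.15), and was not called without dex replicate 2, at -0.33, or etoh replicate 1, at -0.27. Of 8 further demethylases JMJD1C, a relative of KDM3A, fell by 0.37 (SE 0.11) and 0 rose, and it lost its call without dex replicate 1, at -0.26, etoh replicate 1, at -0.34, or etoh replicate 2, at -0.39. Among 15 tested lysine methyltransferases outside the name patterns 0 passed edgeR's test, and 1 had an unadjusted p under 0.05. Among 7 tested arginine methyltransferases 0 passed, with 0 at an unadjusted p below 0.05 in either direction. For both of these sets, the shares over all tested genes were 11.4% called and 23.5% at an unadjusted p below 0.05.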

How the data were processed

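Raw counts of aligned reads per transcript were deposited by the authors, 1 table per library over 119207 transcript sequences with GENCODE-style names. The submitters' processing notes name CASAVA, Bowtie, SAMtools and DESeq2 without version or role. The sources used here do not give the aligner settings, the build, the annotation release or the use of strand. The unnamed row of unaligned reads, 17.2% to 18.7% of reads, was left out. Counts were summed over all transcripts of a gene identifier and scaled to the aligned total (CPM), and TPM was computed here from the transcript lengths in the files. Genes were kept by filterByExpr (minimum count 10), normalized by TMM and tested two-sided with edgeR 4.0.16 in R 4.3.3, at a biological coefficient of variation of 8.08%. The SE is the log2 fold change divided by the root of the F statistic, and the 95% interval follows from it. The code was tested on simulated data.

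Whether replicates are separate cultures is not stated in the labels. The p-values therefore reflect the spread among these 4 libraries alone, and it may be technical. No pair was a duplicate: a chi-square of gene counts, divided by its degrees of freedom, gave 5.37 for the dex pair, 6.97 for the etoh pair and 15.2 or more across groups. The 2 libraries a group limit every test here.

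Members and lists were chosen with earlier results of these data known. Every called member is named, with the member of each class highest per transcript length, the one with the smallest p where a class had no call, the members nearest 40 reads on either side, and up to 4 called genes per partner list. KDM3A, SETD6, EZH2, SIRT2, KDM6B, HDAC3, SETD7, KDM4B, KMT2B, EHMT2, EZH1 and the further members given by log2 fold change were chosen after their values were seen. Alternatives were DESeq2 1.42.0, limma-voom (limma 3.58.1), other scaling and filters, the most abundant transcript per gene, the replicate number as a block and each library left out. Gene positions and overlaps came from GENCODE 29 on GRCh38, matched by gene identifier. PECAM1 was not analysed here, and some called partner genes are not reported here by name.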

Additional observations from a re-analysis of the deposited data

How the results depend on the processing

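The 3 member calls kept their direction under every setting tried and were all made again with DESeq2 size factors, library totals, no count filter, a minimum of 1 CPM in 2 or more libraries, and limma-voom, and with transcripts summed by gene symbol, a setting added after the data were seen. DESeq2 as the test called 0 members higher and 0 lower, with 5 at an unadjusted p below 0.05, 999 genes in all against 1684 by edgeR, and 5 partner genes higher and 0 lower. With the most abundant transcript per gene, 13799 genes were tested, and 0 members were called higher and 0 lower. The share of all genes called in that fit is not reported here, so these counts do not set the members apart from genes in general. At an adjusted p of 0.01, 995 genes passed, with 0 members higher, 0 members lower, 0 partner genes lower and 0 member transcripts.

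Without each library in turn, between 1111 and 1965 genes were called, with 0 to 1 members higher and 0 to 2 members lower, and 4 to 8 partner genes higher and 0 to 2 lower. Calls of members were 0 without dex replicate 1 or without etoh replicate 1. A group left with a lone library borrowed its spread from the other group. For transcripts, the share called over all those tested is reported for the main fit alone, at 5.64%. Counts of member transcripts in other settings therefore do not set them apart from transcripts in general. The 1 member transcript called became 2 with library totals, 0 with no count filter, 0 with DESeq2, 0 with limma-voom, 0 with the replicate block and 0 to 3 without each library in turn.

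The labels state no pairing, so the replicate number was no block in the main fit. The deviations of same-numbered libraries from their group means had a correlation of -0.20 over 11117 genes. With 2 libraries a group, the crossed numbers have the same correlation with opposite sign by construction. With the replicate block, 0 members were higher and 1, SIRT1, was lower, with 1 partner gene lower and 1558 genes called. With the crossed pairing (crossed replicate block, added after the data were seen), 2710 genes were called, with 3 members higher, 5 lower and 6 partner genes lower. These counts are not independent of that correlation and are no support for the calls.

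The sign of the log2 fold change turned for 16 named genes, none of them called. With the most abundant transcript HDAC1 was at -0.0754, EHMT2 at -0.0963, KMT2D at 0.00467 and NSD1 at 0.0135. Without each library in turn HDAC1 ran from -0.0468 to 0.12, KDM1A from -0.0035 to 0.20, KDM4D from -0.93 to 0.47, HDAC3 from -0.11 to 0.0466, HDAC4 from -0.00108 to 0.0866, HDAC5 from -0.53 to 0.0433 and EHMT2 from -0.0696 to 0.18. The ranges were -0.15 to 0.0637 for KMT2A, -0.21 to 0.0300 for KMT2C, -0.0962 to 0.0753 for KMT2D, -0.0262 to 0.42 and -0.00876 to 0.28 for the KMT2B identifiers, -0.19 to 0.0989 for SETD1A, -0.12 to 0.0813 for SETD1B, -0.0502 to 0.0384 for NSD1, -0.0479 to 0.15 for SETD2 and -0.14 to 0.10 for DOT1L. The cause of these differences was not tested. Depth limits the members with few reads: HDAC11, HDAC5, HDAC10, KDM4D and KDM8 had standard errors of 0.32 or more.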
